A study of Mus musculus with 4 samples.

Results

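Scavenger and efferocytosis receptors are the surface molecules by which macrophages take up modified lipoproteins, microbes, particles and dying cells. The 10 genes described here were listed by name and by no rule on measured values, though earlier results of these data were known. They are the scavenger receptors Marco, Msr1, Olr1, Scarb1, Stab1 and Cd163, the mannose receptor gene Mrc1 and the receptor tyrosine kinases Mertk and Axl. The last is Sirpa, the receptor for the CD47 signal on healthy cells. All 10 were found by symbol among 21755 protein-coding genes of the GENCODE M21 annotation of mm10 (chromosome Y left out). RBPJ occupancy was measured by HT-ChIPmentation, a chromatin immunoprecipitation whose libraries are made by tagmentation on the beads, in alveolar macrophages (AMs). These came from WT C57BL/6J mice aged 9 wk. The AMs were obtained by bronchoalveolar lavage and cell sorting from the lung, and they received no treatment or genetic change that the labels name. There were 4 libraries, namely 2 with an Abcam antibody to RBPJ and 2 inputs without antibody, and a separate peak list was deposited for each RBPJ library. The labels do not say whether the libraries came from separate animals.

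RBPJ binds DNA and carries the signal of activated Notch receptors to target genes, and its sites share the letters TGGGAA. Without Notch it can hold corepressors at the same sites, so occupancy says nothing of the direction in which a gene responds. In the lung, AMs clear inhaled particles, spent surfactant and apoptotic cells from the airspace, and the products of these genes are among the receptors they use. The data held 1 condition, so each comparison is between members, between the 2 libraries, or of the members with all genes, and none was tested.

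A region is a stretch of overlapping peaks with at least 1 peak of each library, and 25454 such regions made up the consensus. A region was assigned to a gene when it overlapped the gene body, came within 1 kb of a transcription start site (TSS) of the gene, or had that gene's TSS nearest to its summit among protein-coding genes. Fold is the enrichment over background at the summit that the authors' peak caller reported, and for each region the highest peak of each library gives the value. The list of replicate 1 was the longer, with 106228 peaks against 47224 in replicate 2. Of these peaks, 26% in replicate 1 and 66.3% in replicate 2 lay in the consensus. As a limited check of the cell label, 10 of 10 AM marker genes had an assigned region, where 45.0% of all protein-coding genes did. Among lymphocyte marker genes 0 of 6 had one, among epithelial 1 of 6, among endothelial 1 of 4 and among neutrophil 1 of 4. No markers of monocytes, other macrophages or dendritic cells were listed, so the check cannot tell AMs from these cells. Read depth was not analysed here.

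RBPJ regions were found at 9 of the 10 receptor genes, and Stab1 was the exception. Among all protein-coding genes, 45.0% had an assigned region. Within 1 kb of a TSS, 5 members had a region (Olr1, Mrc1, Mertk, Axl and Sirpa), where 33.7% of all genes did. Of the 10 AM marker genes, 9 had a region there. In the gene body, 7 members had a region, against 37.3% of all genes, and the 3 without were Marco, Stab1 and Cd163. The 9 members with a region all had their strongest one, by the lower fold of the 2 libraries, in the top 25% of genes, a group that by construction holds 25.0% of genes and starts at a fold of 5.61. Since most genes had no region, that group took in 55.6% of the genes with one, and its start lay below their median of 5.84, which 8 of the 9 members exceeded. The strongest region was not adjusted for the number of regions at a gene. With 10 genes that were listed when earlier results of these data were known, these shares describe the list and were not tested.

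In total, 86 regions were assigned to the members. Sirpa had 20, Mrc1 16, Axl 15, Mertk 12, Olr1 9, Marco 6, Msr1 4, Scarb1 3 and Cd163 1. Of the 86 summits, 51 lay in introns, 3 in exons, 25 upstream and 7 downstream of the gene, and 6 were within 1 kb of a TSS. The regions in gene bodies came to 1.18 per 10 kb over the members and 0.178 per 10 kb over all protein-coding genes. This density was not computed over the AM marker genes. The map of regions by distance shows 3 layouts. At Sirpa, Axl, Olr1, Mrc1 and Mertk most regions overlapped the gene body, at Marco and Cd163 they were all outside it, and at Msr1 and Scarb1 they were few and scattered. The last region of Mrc1 had its summit 60165 bp into a gene of 102666 bp. That of Mertk lay 77644 bp into a gene of 103939 bp.

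**Figure D1:**
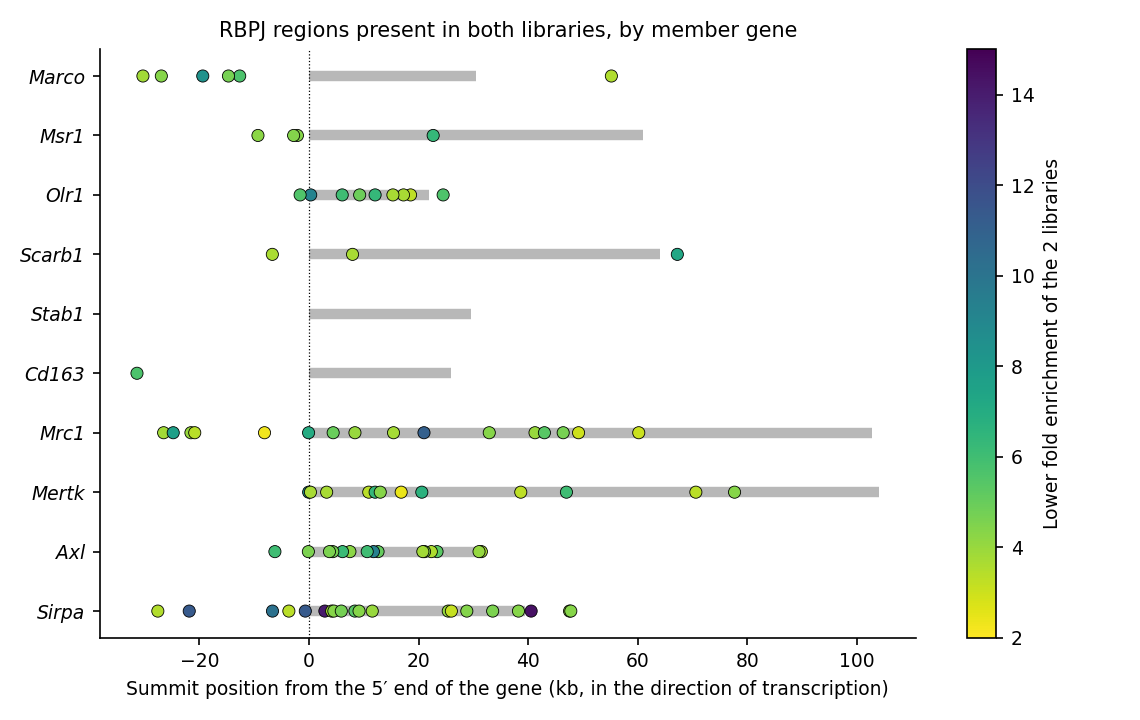
Position of each of the 86 RBPJ regions at the 10 genes. The x axis gives the summit's distance from the 5′ end of the gene in kb, negative upstream; gray bars span the gene bodies, each point is 1 region, and its color gives the lower fold of the 2 libraries. The darkest points are at Sirpa and Mrc1, Stab1 has no point, and all points of Marco and Cd163 lie outside their bars.

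The sequences at the strongest region of 8 members are given here because 7 of the 8 summits lie over 10 kb from a TSS of their gene, where a promoter sequence would not show them. Each line holds the 101 bases centered on the summit (taken from whichever library had the higher fold), read from the plus strand of GRCm38 (mm10), and capitals mark every match to a searched motif except the short ETS letters. On the opposite strand the RBPJ letters read TTCCCA.
Marco strongest region, chr1:120524343-120524443, plus strand: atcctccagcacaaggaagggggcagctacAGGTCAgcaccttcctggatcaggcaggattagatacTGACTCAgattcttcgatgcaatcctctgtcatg
Msr1 strongest region, chr8:39619960-39620060, plus strand: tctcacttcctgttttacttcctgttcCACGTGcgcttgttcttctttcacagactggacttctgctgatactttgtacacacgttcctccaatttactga
Olr1 strongest region, chr6:129506795-129506895, plus strand: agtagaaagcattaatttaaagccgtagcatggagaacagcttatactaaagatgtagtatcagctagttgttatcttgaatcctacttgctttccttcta
Scarb1 strongest region, chr5:125273838-125273938, plus strand: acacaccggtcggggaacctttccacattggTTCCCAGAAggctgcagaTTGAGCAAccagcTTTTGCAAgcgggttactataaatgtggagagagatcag
Cd163 strongest region, chr6:124273235-124273335, plus strand: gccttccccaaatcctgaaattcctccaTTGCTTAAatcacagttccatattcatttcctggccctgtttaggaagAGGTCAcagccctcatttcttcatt
Mrc1 strongest region, chr2:14250329-14250429, plus strand: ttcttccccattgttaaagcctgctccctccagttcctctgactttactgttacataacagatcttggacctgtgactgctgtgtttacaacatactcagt
Axl strongest region, chr7:25776892-25776992, plus strand: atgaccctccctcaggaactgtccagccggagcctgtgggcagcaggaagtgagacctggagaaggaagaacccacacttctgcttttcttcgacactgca
Sirpa strongest region, chr2:129633319-129633419, plus strand: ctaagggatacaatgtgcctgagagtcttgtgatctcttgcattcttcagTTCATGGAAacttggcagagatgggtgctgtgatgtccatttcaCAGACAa
Of these 8 windows, the one at Scarb1 alone holds the RBPJ letters. At Sirpa the capitals mark the STAT letters TTCNNNGAA starting at the summit and a SMAD match near the end. At Marco they mark an AP-1 match and a nuclear receptor hexamer, at Msr1 an E-box, and at Cd163 a gapped CEBP match and a hexamer.

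**Figure D2:**
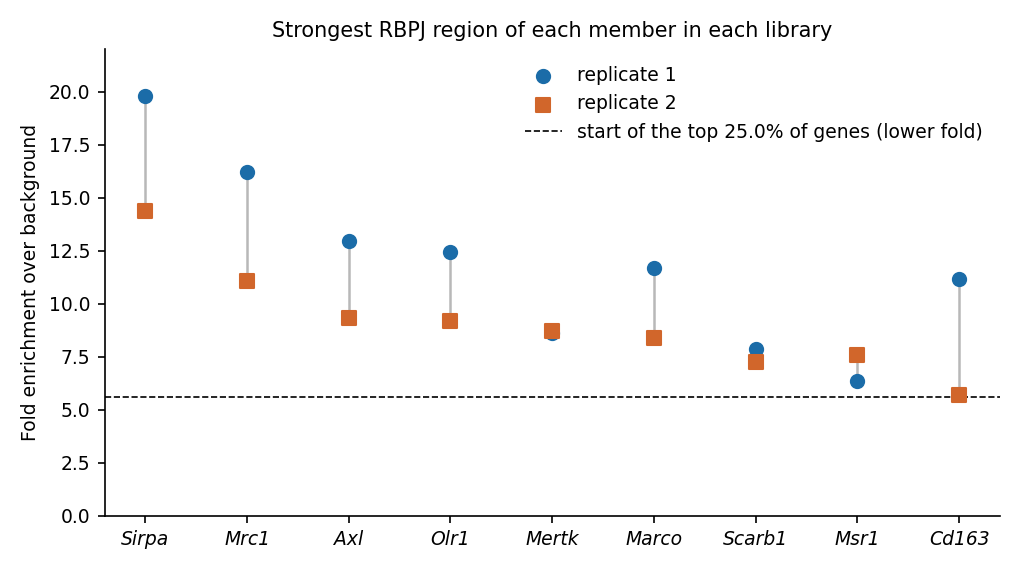
Fold enrichment of the strongest region of each of the 9 members that had one, in replicate 1 (circles) and replicate 2 (squares), ordered by the lower value. The dashed line marks a lower fold of 5.61, where the top 25% of genes begins; Sirpa leads with 19.8 and 14.4, and the lower value of Cd163, 5.69, is just above the line.

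Marco, a class A scavenger receptor that binds bacteria and unopsonized particles, had 6 regions and none in its gene body (chr1:120474538-120505024, minus strand). Of these, 5 lay 12634 to 30286 bp upstream and 1 lay 24687 bp past the 3′ end. The strongest, 19369 bp upstream at chr1:120523845-120524811, reached 11.7-fold in replicate 1 and 8.37-fold in replicate 2. The next region upstream, at 26928 bp, was higher in replicate 1 (12.4) but only 4.35 in replicate 2, and the summits of the libraries were 643 bp apart. Within the gene, replicate 1 had 6 peaks and replicate 2 had none. One of those 6, in an intron 362 bp past the TSS with a fold of 4.05, was the sole peak of either library within 1 kb of the start. In the single lists, 46.1% of genes in replicate 1 and 37.5% in replicate 2 had a peak within 1 kb of a TSS.

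Msr1, which encodes another class A scavenger receptor and takes up modified low-density lipoprotein, had 4 regions (chr8:39581685-39642673, minus strand). The strongest region, at chr8:39618981-39620208, had its summit in coding sequence of exon 5 of the longest coding transcript, 22610 bp from the TSS. Its fold was 6.34 in replicate 1 and 7.59 in replicate 2, and Msr1 and Mertk were the 2 members whose strongest region was higher in replicate 2. The other 3 regions were upstream at 2102, 2797 and 9301 bp, with lower folds of 4.35, 4.39 and 4.28. Neither library had a peak within 1 kb of its start.

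Olr1, which encodes the lectin-like receptor LOX-1 for oxidized low-density lipoprotein, was the gene most covered by peaks. Peaks covered 71.3% of its body (chr6:129485244-129507165, minus strand) in replicate 1 and 29.0% in replicate 2. Over all protein-coding gene bodies, the share was 2.06% and 0.811%. Its strongest region, 5858 bp wide, ran from upstream of the TSS into the gene, with folds of 12.4 and 9.18. The highest summits of the 2 libraries in that region were 2025 bp apart, so both libraries marked the stretch but not the same point in it. With summits required to lie within 100 bp of each other, the strongest region of Olr1 had a lower fold of 6.02 in place of 9.18. In intron 4 a region 12012 bp from the TSS had folds of 12.7 and 6.36, and in intron 2 another at 6012 bp had 9.39 and 6.02 with summits 24 bp apart. The 6 remaining regions had lower folds between 3.30 and 5.61.

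Scarb1, the receptor for high-density lipoprotein that also binds phosphatidylserine on dying cells, had 3 regions around a gene of 64008 bp (chr5:125277087-125341094, minus strand). The strongest lay 3199 bp past the 3′ end, at chr5:125273323-125274423, with folds of 7.87 and 7.26. It also lies within 1 kb of the start of the long noncoding RNA gene Gm32585, so the assignment to Scarb1 rests on the nearest protein-coding TSS alone, 67183 bp away. The region in intron 1 had 5.07 and 3.68, and that 6678 bp upstream had 3.73 and 3.67. Near the start, replicate 2 had a peak at 380 bp with a fold of 3.01, and replicate 1 had none.

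Stab1, a large receptor that clears modified lipoproteins and recognizes phosphatidylserine, had no region that both libraries shared (chr14:31139013-31168641, minus strand). Replicate 1 had 3 peaks, with folds of 4.82, 4.82 and 3.81. Replicate 2 had a single peak, with a fold of 4.35. The nearest of these peaks to each other were 294 bp apart in the first part of the gene. The peaks covered 1.3% of the gene body in replicate 1 and 0.516% in replicate 2.

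Cd163, the receptor for hemoglobin bound to haptoglobin, had 1 region, 31371 bp upstream of its TSS at chr6:124272864-124273856. Its fold was 11.2 in replicate 1 and 5.69 in replicate 2, and the highest summits were 71 bp apart. In the gene body (chr6:124304656-124330527, plus strand), replicate 1 had no peak and replicate 2 had 1, with a fold of 3.68. The lower value of 5.69 lay close to the start of the top 25%, so the place of Cd163 in that group turned on replicate 2.

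Mrc1, which encodes the mannose receptor CD206 for glycans on microbes and glycoproteins, had 16 regions (chr2:14229392-14332057, plus strand). The strongest, in intron 4 at chr2:14249261-14251051, had folds of 16.2 and 11.0 and was 20987 bp from the TSS. The region over the TSS was 4532 bp wide, with folds of 11.4 and 7.03. Another 5 regions lay upstream, between 8106 and 26510 bp. The strongest of these, at 24759 bp, had 11.4 and 7.70. All 5 overlap the body of the neighboring gene Tmem236, although their nearest protein-coding TSS was that of Mrc1. The remaining 9 regions were in introns 1 to 12, with lower folds between 3.01 and 5.36.

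Replicate 1 listed 123 peaks for Mrc1 and replicate 2 listed 24, of which 14.6% and 83.3% lay in the consensus. Peaks covered 32.1% of the gene body in replicate 1 and 5.93% in replicate 2. One peak 4867 bp upstream had a fold of 8.12 in replicate 1 and no counterpart in replicate 2. In intron 5 of Mrc1 lies the microRNA gene Mir511, whose hairpin ends 839 bp before the region in intron 6 (folds 7.61 and 4.35). The mature miRNA in the RefSeq table is printed because its gene lies within the host gene and close to a region, with the seed (bases 2 to 8) in capitals.
mmu-miR-511-3p, chr2:14261051-14261072, plus strand: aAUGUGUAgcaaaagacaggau

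Mertk and Axl encode receptor tyrosine kinases of the TAM family, which bind phosphatidylserine on apoptotic cells through the bridging proteins Gas6 and protein S. The strongest region of Mertk (chr2:128698956-128802894, plus strand) lay at its promoter, with a summit 51 bp before the TSS. Its folds were nearly equal, 8.63 in replicate 1 and 8.70 in replicate 2. The second region of the promoter, at 274 bp, had 5.07 and 3.68, with summits 401 bp apart. Intron 1 held 7 of the 12 regions, that one included, and the widest of them, 5954 bp, had 13.4 and 6.69 with its summit 20589 bp from the TSS. In intron 4 a region 46974 bp from the TSS had 13.2 and 6.02. Both of these were above the promoter in replicate 1 and below it in replicate 2. Peaks of Mertk covered 29.4% of its body in replicate 1 and 5.45% in replicate 2.

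Axl (chr7:25757273-25788705, minus strand) had 15 regions in and around a gene of 31433 bp. Of these, 14 overlapped the gene body, or 4.45 per 10 kb, the highest density among the members. Its strongest region, in intron 6 at chr7:25776311-25777224, had folds of 12.9 and 9.32, and the summits of the libraries were 11 bp apart. A region in intron 4, 6107 bp from the TSS, had 6.17 in replicate 1 and 10.4 in replicate 2, with summits 2 bp apart. The promoter region had 4.57 and 7.03. Peaks covered 33.3% of the gene body in replicate 1 and 22.9% in replicate 2, and of the 37 and 28 peaks, 43.2% and 64.3% lay in the consensus. The 6 regions toward the 3′ end of Axl had the TSS of the next gene, Hnrnpul1, as nearest, and entered by the gene body alone. Their lower folds were between 3.58 and 5.33.

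The promoters of Mrc1, Mertk and Axl are printed because the summits of both libraries fell inside them. Each holds 250 bases before and 50 after the RefSeq start (GRCm38.p6), in the direction of transcription, and capitals mark the 5 bases either side of each library's summit.
Mrc1 promoter, chr2:14229164-14229463, plus strand: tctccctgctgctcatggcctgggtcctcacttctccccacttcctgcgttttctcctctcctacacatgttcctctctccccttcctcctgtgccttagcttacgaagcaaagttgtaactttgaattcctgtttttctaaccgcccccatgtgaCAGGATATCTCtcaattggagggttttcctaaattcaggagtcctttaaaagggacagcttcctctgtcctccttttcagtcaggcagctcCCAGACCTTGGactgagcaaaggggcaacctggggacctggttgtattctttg
Mertk promoter, chr2:128698665-128698964, plus strand: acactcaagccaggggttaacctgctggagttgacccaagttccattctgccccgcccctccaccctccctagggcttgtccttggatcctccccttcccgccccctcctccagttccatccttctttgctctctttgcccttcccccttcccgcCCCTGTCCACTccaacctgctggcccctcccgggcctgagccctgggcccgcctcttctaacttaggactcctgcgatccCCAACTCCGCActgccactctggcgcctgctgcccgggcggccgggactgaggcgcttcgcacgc
Axl promoter, chr7:25788684-25788983, minus strand: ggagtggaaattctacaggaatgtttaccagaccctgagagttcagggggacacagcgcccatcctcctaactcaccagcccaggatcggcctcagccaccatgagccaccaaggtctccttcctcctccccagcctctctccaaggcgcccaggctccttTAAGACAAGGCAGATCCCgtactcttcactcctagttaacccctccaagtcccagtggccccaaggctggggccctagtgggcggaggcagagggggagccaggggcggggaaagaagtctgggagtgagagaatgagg
At Axl the capitals run together, since the summits were 7 bp apart. At Mrc1 and Mertk they form a stretch for each library, 91 and 80 bp apart, and at Mrc1 one of the stretches lies over the start itself. The Mertk promoter had a GC content of 66.0%, that of Axl 60.3% and that of Mrc1 50.3%. None of the 3 holds TGGGAA, which 25.6% of the 32851 promoters of this length in the table do. RefSeq promoters were matched for 7 of the 10 members, and of these the promoter of Marco alone held the letters, where no peak of either library overlapped the window.

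Sirpa, the inhibitory receptor that restrains uptake when it meets CD47, had the most regions and the strongest one (chr2:129592835-129632228, plus strand). That region, 7176 bp wide, spans the 3′ end of the gene, and its summit lay 1141 bp beyond. Its fold was 19.8 in replicate 1 and 14.4 in replicate 2, values that 0.121% of all peaks in replicate 1 and 0.421% in replicate 2 reached. By the lower fold it ranked 108 among 21755 genes. A region with its summit in intron 1, which also came within 1 kb of a TSS, had 16.7 and 14.1. The promoter region over the start of the gene had 17.1 and 11.4, and a region 21842 bp upstream had 17.8 and 11.4. A further region 6656 bp upstream had 10.1 and 10.7. The other 15 regions of Sirpa had lower folds between 3.15 and 5.36.

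The strong Sirpa regions were wide, and the libraries did not always peak at the same place in them. At the promoter the highest summits were 771 bp apart, and in intron 1 they were 1866 bp apart. At the 3′ end the gap was 138 bp and at 21842 bp upstream it was 97 bp. Of the 63 peaks in replicate 1, 36.5% lay in the consensus, and of the 32 peaks in replicate 2, 87.5% did. The farthest region upstream, at 27571 bp, lies at the start of the antisense gene Gm14041, with folds of 8.12 and 3.51.

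Ordered by the lower fold of the strongest region, the genes ran Sirpa (14.4), Mrc1 (11.0), Axl (9.32), Olr1 (9.18), Mertk (8.63), Marco (8.37), Scarb1 (7.26), Msr1 (6.34) and Cd163 (5.69). The median of the 9 was 8.63, against 5.84 over all genes with a region. A strongest region is a maximum, so a gene with more regions has more chances of a high one. Sirpa, Mrc1, Axl, Mertk and Olr1, the members with the most regions, also led this order. No adjustment was made for the number of regions. Pooled over the 2 libraries, the values of many neighbors in this order overlapped. They did so for Axl (12.9 and 9.32), Olr1 (12.4 and 9.18) and Marco (11.7 and 8.37), and for Sirpa and Mrc1. Within each library, however, Axl was above Olr1, Olr1 was above Marco, and Sirpa was above Mrc1. The nearly equal values of Mertk lay below both of Olr1, and they were below Marco in replicate 1 but above it in replicate 2. With summits within 100 bp of each other, Olr1 (6.02) came after Msr1 and before Cd163, and Mrc1 (7.70) came after Marco. Sirpa stayed first, with 11.4. In the main setting the lower value of Sirpa was above the highest of every other member except Mrc1. Its 11.4 with the closer summits was below the 12.9 of Axl in replicate 1. Over all 86 regions the median lower fold was 4.36, against 4.69 over the consensus, so most regions at these genes were of ordinary strength and a few were high.

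**Figure D3:**
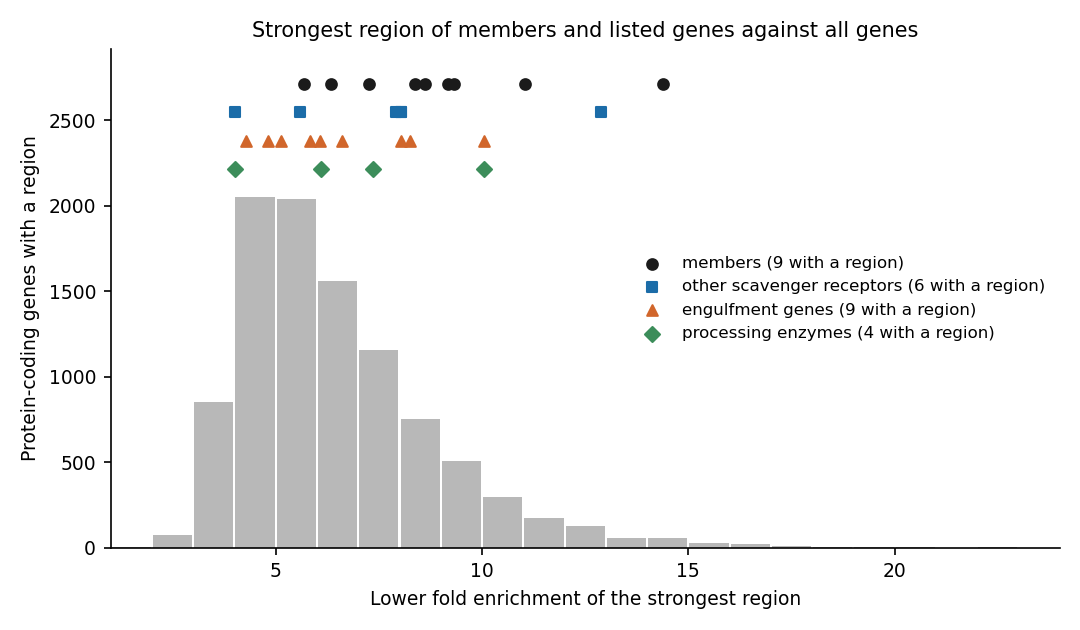
Strongest region of the members and of related genes against all protein-coding genes with a region. The x axis gives the lower fold of the 2 libraries and bars count genes per unit of fold; symbols above the bars mark 9 members, 6 other scavenger receptors (Cd36 and Lrp1 coincide at 8.03), 9 engulfment genes and 4 enzymes, and 2 members, Mrc1 and Sirpa, lie beyond 10.

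The regions of these genes had a median width of 620 bp, against 593 bp over the consensus, and 6 of the 86 (6.98%) were wider than 3 kb, against 2.15%. Those 6 belonged to Olr1, Mrc1, Mertk and Sirpa. The fold was higher in replicate 1 in 56 of the 86 (65.1%), against 72.2% of the consensus. The highest summits of the libraries were within 100 bp of each other in 45 (52.3%), the same share as over the consensus.

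Replicate 1 listed 421 peaks for the members and replicate 2 listed 142. Of these, 99 (23.5%) and 107 (75.4%) lay in the consensus. The share was slightly below that of the whole list in replicate 1 (26%) and above it in replicate 2 (66.3%). In replicate 1, peaks covered 21.3% of the members' gene bodies, and in replicate 2 they covered 6.71%. The plot of coverage by gene separates the members in the same way in both lists: Olr1, Sirpa, Axl, Mrc1 and Mertk were above 5% in each library, and the other 5 were below 4%. Replicate 1 gave the wider coverage at 8 of the 10 genes, and the exceptions were Scarb1 and Cd163.

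**Figure D4:**
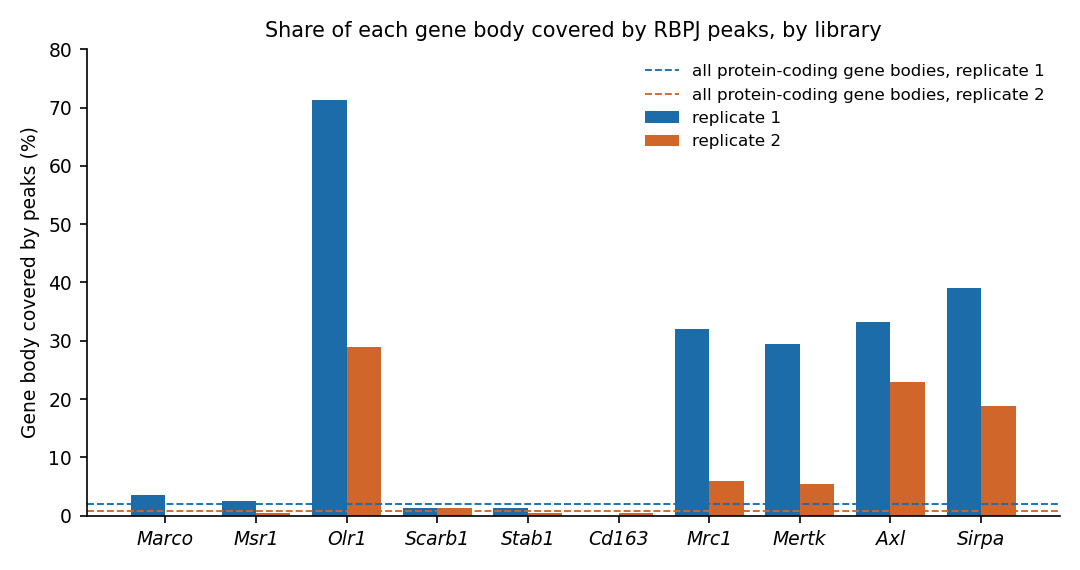
Percent of each gene body covered by peaks of replicate 1 and replicate 2, with dashed lines at the share over all protein-coding gene bodies (2.06% and 0.811%). Olr1 is the most covered in both libraries, and Marco, Msr1, Scarb1, Stab1 and Cd163 sit near the lines.

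The RBPJ letters TGGGAA, searched on both strands, stood within 100 bp of the summit in 17 of the 86 regions (19.8%), against 18.8% of all consensus regions. All 3 regions of Scarb1 held them, as did 4 of 15 at Axl, 3 of 16 at Mrc1, 2 each at Msr1, Mertk and Sirpa, and the 1 region of Cd163. No region of Marco or Olr1 did. The stretches below are those at regions with a lower fold above 5.61, besides that of Scarb1 printed above, and the closest pair, with the letters in capitals on either strand.
Mrc1 TGGGAA stretch, chr2:14204648-14204713, plus strand: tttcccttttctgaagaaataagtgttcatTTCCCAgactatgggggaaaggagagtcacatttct
Msr1 TGGGAA stretch, chr8:39619910-39619950, plus strand: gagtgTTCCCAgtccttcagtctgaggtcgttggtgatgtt
Axl TGGGAA stretch, chr7:25782484-25782549, plus strand: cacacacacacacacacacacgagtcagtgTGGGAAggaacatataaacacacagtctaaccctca
Cd163 TGGGAA stretch, chr6:124273308-124273373, plus strand: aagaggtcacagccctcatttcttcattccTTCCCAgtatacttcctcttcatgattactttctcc
Mertk TGGGAA stretch, chr2:128699184-128699249, plus strand: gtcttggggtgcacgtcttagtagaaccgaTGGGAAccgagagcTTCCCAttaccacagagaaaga
At Mertk the letters occur on both strands with 8 bases between them, 16 and 2 bp from the summit of replicate 1 in the weaker promoter region described above. The upstream region of Scarb1 also held a pair, with 94 bases between them. At Scarb1 the match lies 19 bp from the summit of the strongest region, and the 3 letters that follow it complete a match to the STAT letters (TTCCCAGAA). The strongest regions of Sirpa, Mrc1, Axl, Olr1, Mertk and Marco held no match within 100 bp of the summit.

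Other motifs were searched in the same windows, with letters for factors known in macrophages. SMAD letters (CAGACA) were in 25 of the 86 regions (29.1%), against 16.6% of the consensus. Axl (7 of 15), Sirpa (6 of 20) and Mrc1 (5 of 16), the members with the most regions, held most of them. STAT letters (TTCNNNGAA) were in 11.6% against 7.38%, RUNX letters (TGTGGT) in 22.1% against 18.5% and gapped CEBP letters in 18.6% against 14.3%. Lower shares than the consensus were seen for the nuclear receptor hexamer AGGTCA (9.30% against 13.3%), the AP-1 letters TGACTCA (5.81% against 6.81%) and the E-box CACGTG (3.49% against 4.88%). The PU.1 motif was in 6.98% against 6.53%, ACTTCC in 27.9% against 30.2% and GGAA, which TGGGAA and the PU.1 motif contain, in 93.0% against 92.4%. The KLF and IRF motifs were in 1.16% and 2.33%, against 2.36% and 3.35%, and the palindromic CEBP and the MITF motifs in none, against 0.212% and 0.507%. The windows at member regions had a median GC content of 42.5%, against 46.8%, and the part of base composition in these shares was not tested.

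**Figure D5:**
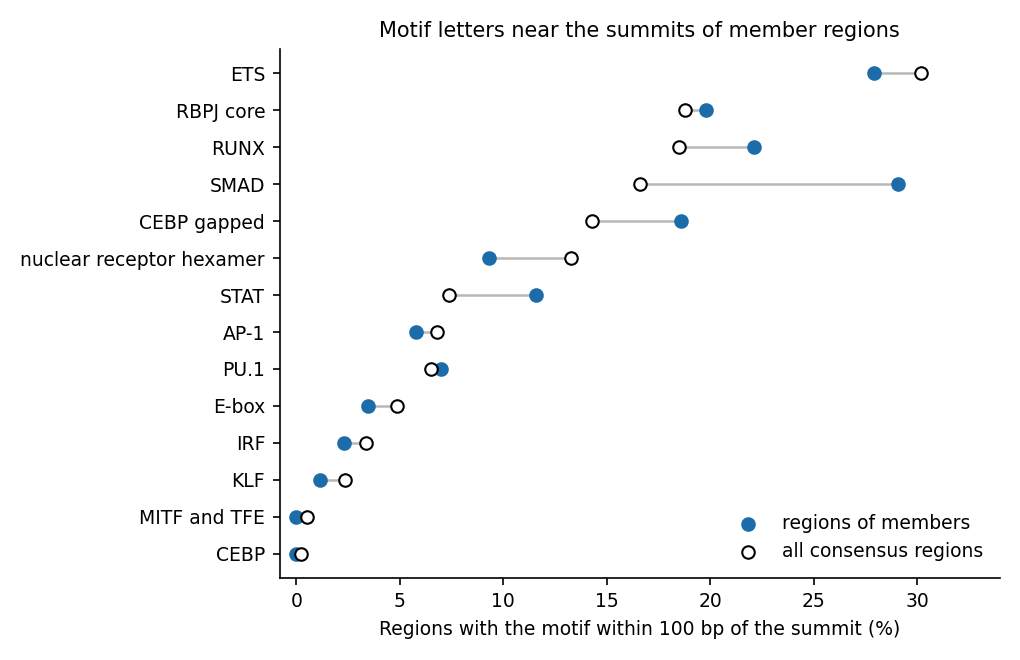
Percent of regions with each motif within 100 bp of the summit, for the 86 regions of the members (filled) and all 25454 consensus regions (open). The widest gap is at the SMAD letters, 29.1% against 16.6%, and the RBPJ letters differ little, 19.8% against 18.8%; no test was run.

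Related genes of the same pathways, in lists also chosen with earlier results known, give the setting. Among 15 further scavenger receptors, 4 (26.7%) had a region within 1 kb of a TSS and 6 (40%) an assigned region, close to the 33.7% and 45.0% of all genes. The strongest were at Cd68, the macrophage sialomucin (16.7 and 12.9), the fatty acid receptor gene Cd36 (14.2 and 8.03), the endocytic receptor gene Lrp1 (10.1 and 8.03) and the lysosomal Scarb2 (11.2 and 7.92). Scara3, Scara5 and Scarf1 were among the 9 without a region. Clec7a, also listed, is not annotated as protein-coding in this gene set and was not counted.

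Of 18 genes for apoptotic cell recognition and engulfment, 8 (44.4%) had a region within 1 kb of a TSS and 9 (50%) an assigned one, where 33.7% and 45.0% of all genes did. Cd47, the ligand of the Sirpa product, had 24 regions, the strongest with 17.5 and 10.04. The engulfment genes Rac1 (9.24 and 8.25) and Elmo1 (14.97 and 8.03) followed, and Pros1, which encodes protein S, had 6.60 and 6.69. Tyro3, the third TAM receptor gene, had none, and neither did the bridging protein genes Gas6 and Mfge8. Of the TAM receptor genes and the genes of their bridging proteins Gas6 and protein S, those with regions shared by both libraries were thus Mertk, Axl and Pros1. Of 4 protease genes whose products cleave surface receptors or their precursors, 3 had a region within 1 kb of a TSS (Furin, Adam17 and Adam10) and all 4 an assigned one, led by Furin with 13.95 and 10.04 and Adam17, the sheddase of Mertk, with 10.1 and 7.36. Mmp14 had 6.09 and 7.03. In the 3 lists together, 15 of 37 genes had a region within 1 kb of a TSS, against 33.7% of all genes.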

How the data were processed

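RBPJ occupancy was profiled by HT-ChIPmentation in sorted AMs of WT mice, with 2 RBPJ and 2 input libraries. The sources name bcl2fastq (version 2.20.0.422) and CASAVA for demultiplexing, Cutadapt for trimming, Bowtie2 for alignment to mm10 and SAMtools for filtering, and the authors called peaks in each library with MACS3 (q threshold 0.05). For each peak, the deposited lists give the fold enrichment at the summit, the −log10 p-value, the −log10 q-value and a display score, of which the score and the −log10 p-value were not used. Inputs entered only through the peak calling.

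Peaks overlapping by at least 1 bp were merged, and merged regions with a peak of each list formed the consensus. Genes were the basic GENCODE M21 transcripts, and sequence was read from GRCm38.p6, whose chromosome ends no peak passed. Distances run from the summit (of whichever library had the higher fold) to the nearest TSS of the gene, and intron numbers follow the longest coding transcript. The assignment was tested on simulated data. Python 3.11.15, numpy 2.4.6 and matplotlib 3.10.9 were used. The members and the gene and motif lists were chosen with earlier results of these data known, and no test was run over them. Named genes were the members, up to 4 per list with the highest strongest region and up to 3 without one, and genes lying in a member's regions. Alternatives covered the q threshold, the overlap rule, list length, single libraries, gene models and the assignment rules.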

Additional observations from a re-analysis of the deposited data

How the results depend on the processing

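The counts rest on 2 lists from 1 condition, so the spread over animals and the effect of depth were not measured. Of 58 alternatives to the main results, 49 left the count or value within its limits and 9 moved it, and for the strongest region of single members 52 left it and 11 moved it. A value within its limits was not always an unchanged one. Without assignment to the nearest TSS, 60 regions in place of 86 counted as within them. With summits within 100 bp, so did a lower fold of 7.70 in place of 11.0 at Mrc1. With regions required to have summits within 100 bp of each other in the 2 libraries, 3 members kept a region within 1 kb of a TSS (Mrc1, Mertk and Axl), where the share over all genes fell from 33.7% to 22.6%, and the regions assigned to members fell from 86 to 49. At a −log10 q of 5 or more in both lists, there were 39 regions, of which 7 (17.9%) held TGGGAA near the summit, against 19.2% of all regions. The letters were in 10 regions (11.6%) within 50 bp of the summit and in 41 (47.7%) anywhere in the region, against 9.97% and 48.6% of all regions. In the list of 1 library alone, 142 (replicate 2) to 421 (replicate 1) regions were assigned to members, and the median fold of the strongest region was 8.54 to 12.6. Each single list gave 6 members within 1 kb of a TSS, since replicate 1 adds Marco and replicate 2 adds Scarb1, and 17 (replicate 2) to 20 (replicate 1) of the listed genes, where 37.5% and 46.1% of all genes had one. Each gave 10 members with a region, where 62.9% (replicate 1) and 58.4% (replicate 2) of all genes had one, and 8 in the top 25% of genes. Without assignment to the nearest TSS, 7 members and 39.7% of all genes had a region, and Marco and Cd163 joined Stab1 with none. No paired analysis was possible because the input libraries, which share their numbers with the RBPJ libraries, had no values of their own in the lists analysed here.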
